A study of Caenorhabditis elegans with 4 samples.

Results

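The arms of chromosome V held 381 of the 3635 NHR-76 peaks in the authors' combined list, 218 on the left arm and 163 on the right arm. A peak was counted to the left arm where its centre, the mean of its start and end in WormBase build WS180, lay below 7 Mb, and to the right arm where the centre lay at 14 Mb or above. The remaining 286 peaks of the chromosome formed the centre. The limits are round positions, so the arms are defined by position and not by a feature of the data. The peaks come from chromatin immunoprecipitation followed by sequencing (ChIP-seq) of Caenorhabditis elegans hermaphrodites at the L4 stage, the last larval stage. All 4 samples, 2 ChIP and 2 input, are from strain OP203, which carries the unc-119(ed3) mutation and the integrated transgene wgIs203. The transgene was introduced by bombardment and supplies nhr-76 fused to TY1, EGFP and FLAG tags together with an unc-119 rescue, and the labels state that the fusion follows the expression pattern of nhr-76. Worms were grown at 20 °C and crosslinked with 2% formaldehyde, and the fusion was collected with a goat antibody against GFP. Peaks from whole animals do not tell which tissue they come from. The labels give no strain without the transgene, and the inputs have no peak list, so no control list stands beside the values.

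NHR-76 is a nuclear hormone receptor, a transcription factor of a family whose members bind DNA through a zinc-finger domain and can respond to small lipophilic ligands. The family is strongly expanded in nematodes, and NHR-76 is known in C. elegans for its part in serotonin-driven fat loss in the intestine. The chromosomes of this worm have no single centromere. The arms of the autosomes recombine more often, hold more repeats and carry more rapidly evolving gene families than the gene-dense centres, and the arms of chromosome V are known for large families of chemoreceptor and nuclear receptor genes. Gene names and DNA sequence of the peaks are not given, because no annotation or genome of build WS180 was used here.

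The lists held fewer peaks per Mb on the arms than in the centre, and more on the left arm than on the right. The arms together carried 27.5 combined peaks per Mb, compared with 40.9 per Mb in the centre, a ratio of 0.673. The ratio was 0.712 in replicate 1, with 13.4 against 18.9 peaks per Mb, and 0.707 in replicate 2, with 28.9 against 40.9. Peaks covered 1.12% of the arms and 1.59% of the centre. Between the arms, the left had 31.3 combined peaks per Mb and the right 23.6, a ratio of 1.33. The ratio was 1.37 in replicate 1, with 108 and 78 peaks, and 1.38 in replicate 2, with 233 and 167. When peaks under 1000 bp apart were merged into 1 site, the arms had 0.673 times the site density of the centre, and the left arm had 26.3 sites per Mb against 21.2 on the right. Two-sided exact binomial tests against the lengths, which count each peak as independent, gave adjusted p-values of 5.16e-06 for arms against centre and 0.0263 for left against right in the combined list. For left against right the adjusted p was 0.100 in replicate 1 alone and 0.214 with merged sites, and the exact test also missed the threshold in 3 other alternatives. The difference between the arms is therefore not established. Peaks are not replicates and they cluster, so these p-values are too small and describe the counts of these lists only. Gene density was not allowed for, so the ratios compare peaks per length of chromosome and not per gene.

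**Figure D1:**
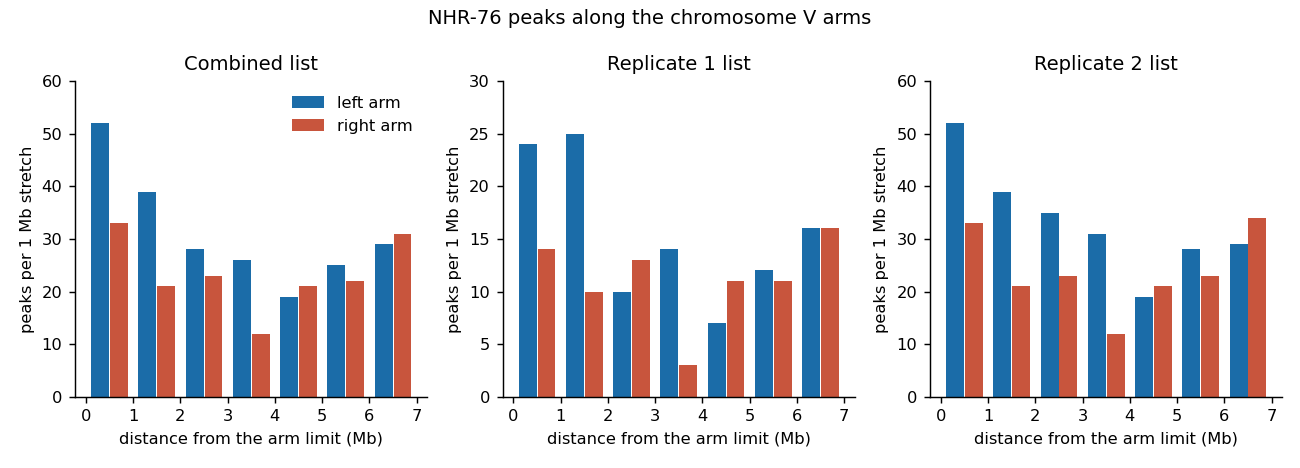
Number of NHR-76 peaks in each 1 Mb stretch of chromosome V, from the arm limit (0) towards the chromosome end, for the left arm (blue) and right arm (red) in the combined, replicate 1 and replicate 2 lists. The replicate 1 axis runs to 30 and the others to 60. The outermost right stretch ends with the last peak. The left arm holds 52 and 39 combined peaks in the stretches next to its limit, against 33 and 21 on the right, whereas the outermost stretches hold 29 and 31.

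The larger number on the left came from the part of the arm next to the centre. In the 3.5 Mb nearest the centre, the left arm had 133 combined peaks (38.0 per Mb) and the right arm 79 (22.6 per Mb), a ratio of 1.68. In the outer part of each arm the counts were 85 on the left and 84 on the right, or 24.6 and 24.7 peaks per Mb, a ratio of 0.995. Replicate 1 had the same division, with 67 and 37 peaks near the centre and 41 and 41 in the outer parts. In replicate 2 the counts were 143 and 79 near the centre, and 90 and 88 in the outer parts. These splits are descriptions, and the difference between inner and outer ratios was not tested. They depend on where the limits are drawn. Just past the limits the order was the other way, with 24 combined peaks between 7 and 8 Mb and 46 between 13 and 14 Mb. With limits at 8 and 13 Mb the left to right density ratio was 1.15. The inner left peaks were also clustered, and the 50 kb windows from V:5750001, V:5800001 and V:6200001 held 7, 8 and 13 combined peaks. By 1 Mb stretch, the left arm ranged between 19 and 52 combined peaks and the right arm between 12 and 33. The sparsest stretch, between 17 and 18 Mb, had 12 combined and 3 replicate 1 peaks. It also held the longest interval without a combined peak on either arm, 453 kb between V:17263070 and 17716518. The longest on the left was 307 kb, between V:2294016 and 2600638.

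Of the 10 strongest left-arm peaks, 7 lay in its inner part, which held 133 of all 218 left-arm combined peaks. The strongest, at V:6220785-6225768, had a width of 4984 bp and a q-value of 2.32e-86, which ranked 2 in the whole combined list. The q-value is the caller's measure of significance, corrected for testing many regions, and it is the authors' own value for each peak. Strength here means a small q-value only. Replicate 2 had the peak with the same edges and q-value. Replicate 1 had 2 peaks there, of 3191 and 1148 bp, with q-values of 1.07e-32 and 1.01e-16, which covered 87.1% of it. The next, at V:5834907-5837462, was 2556 bp wide and a single peak in every list, with q-values of 4.96e-60 in the combined list, 8.88e-34 in replicate 1 and 4.96e-60 in replicate 2. The peak ranked after it on the left arm lay in the outer part, at V:1157413-1158667, with q-values of 1.36e-33 in the combined list, 1.40e-19 in replicate 1 and 3.12e-33 in replicate 2. All 3 sites were thus called in both replicates, and at each the replicate 1 q-value was the larger.

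Narrow peaks were also among the 10 strongest of the left arm. The peak at V:5763828-5764262, ranked 107 in the combined list, was 435 bp wide, with q-values of 7.75e-25 in the combined and 1.02e-17 in the replicate 1 list. The peak at V:3644330-3644771 was 442 bp wide and lay 56909 bp from its nearest neighbour (q-values 2.16e-20 and 1.81e-11). Others were wider. Those at V:6226304-6228932, V:5049371-5050258, V:6277218-6278686 and V:723767-724365 were 2629, 888, 1469 and 599 bp wide. Their combined q-values lay between 9.92e-25 and 3.30e-22. Each overlapped replicate 1, which covered 46.1%, 97.4%, 85.3% and 94.3% of their widths. A single one of the 10 had no replicate 1 peak. It lay at V:726129-728488, spanned 2360 bp and had a combined q-value of 2.64e-21. It belonged to a run of 6 combined peaks between V:723767 and 731723 in which replicate 1 had 4 peaks, over the outer 2 on each side, and none over the 2 in the middle. The left-arm peaks of smallest q without replicate 1 after it were at V:5505082-5505628 (6.84e-12) and V:5031745-5032500 (1.20e-09).

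The 4 strongest peaks of the right arm lay together, between V:18637536 and 18724702. The strongest, at V:18715698-18721419, spanned 5722 bp, had a q-value of 3.78e-43 and ranked 37 in the combined list. Replicate 1 had 3 peaks within it, of 1290, 446 and 2438 bp, with q-values of 1.85e-07, 0.000153 and 6.66e-09. Only 244 bp separated it from a peak of 3039 bp at V:18721664-18724702, with q-values of 1.77e-23 in the combined and 1.37e-13 in the replicate 1 list. In replicate 1 that neighbour had a smaller q-value than any piece of the wider peak, so the order of the adjacent peaks differed between the lists. Another wide peak, of 3481 bp at V:18704078-18707558 (q = 1.88e-12), was covered to 37.7% by a replicate 1 peak of 1313 bp. These 3 peaks made up 18.3% of all peak-covered sequence of the right arm. At 63771 bp to the left of them lay a pair of peaks at V:18637536-18639028 and V:18639459-18640306, with combined q-values of 2.10e-28 and 2.50e-27 and replicate 1 q-values of 3.85e-18 and 1.71e-15.

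**Figure D2:**
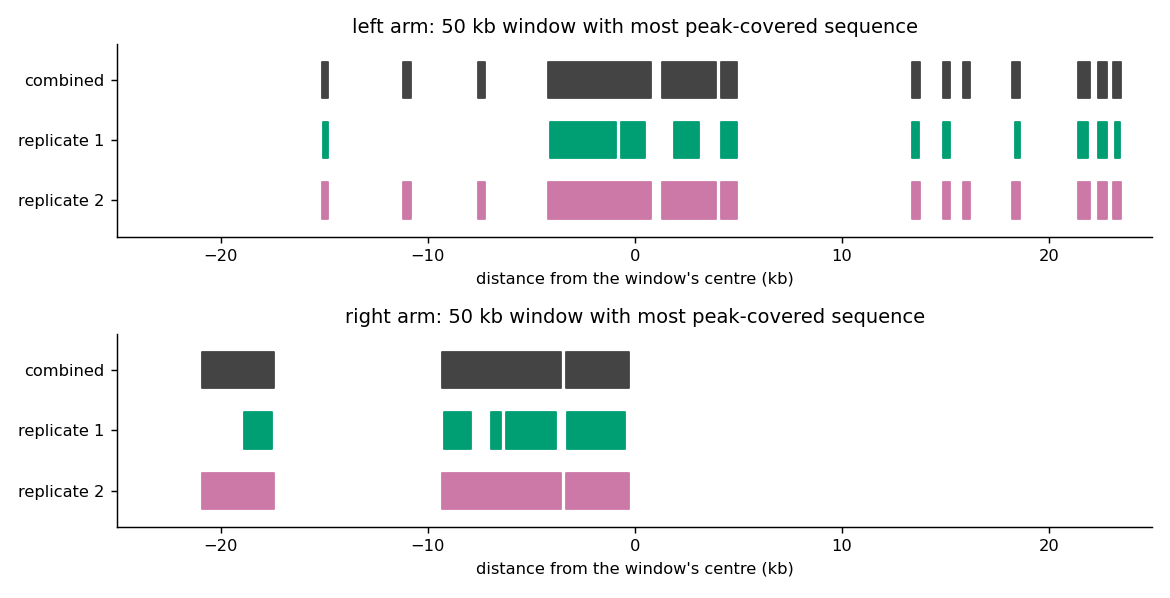
Peaks of the combined, replicate 1 and replicate 2 lists in the 50 kb window with most peak-covered sequence on the left arm (top) and on the right arm (bottom), drawn to scale by distance from the window's centre in kb. The left window holds 13 combined and 11 replicate 1 peaks, and the right one 3 combined and 5 replicate 1 peaks, since 1 wide combined peak is in 3 pieces in replicate 1.

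The remaining strong peaks of the right arm were spread out and mostly narrow. Those next in strength were between 284 and 470 bp wide, at V:15464977-15465446, V:14685583-14686019, V:14055081-14055364 and V:18967632-18967964, with combined q-values between 2.31e-20 and 2.10e-17. They were followed by a peak at V:20157315-20158765, which was 1451 bp wide in the combined list and 1081 bp in replicate 2, and one at V:19212336-19212788. All 10 overlapped a replicate 1 peak. The strongest right-arm peak without one was at V:19622546-19623152, with a q-value of 2.28e-09 in the combined and 7.51e-09 in the replicate 2 list. The next were at V:14122432-14122622 (4.03e-09) and V:15815816-15816255 (1.04e-08). At its single strongest site the left arm far exceeded the right, but of all combined peaks 22 of 218 on the left (10.1%) and 15 of 163 on the right (9.20%) were among the 363 strongest of the list, against 9.99% of all combined peaks.

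Widths and strengths of peaks overlapped widely between the arms. The median width was 322.5 bp on the left arm (quartiles 191 and 462) and 281 bp on the right (quartiles 163 and 442). In replicate 1 the medians were 320 and 330.5 bp, so the order of the arms was not the same in each list. The median log10 q-value was -5.52 on the left and -5.38 on the right. In replicate 1 it was -5.05 and -4.90. Width and strength were related in part, with a Spearman's rho between width and -log10 q of 0.60 across 218 left-arm and 0.70 across 163 right-arm peaks. This is a description across peaks of 1 list, which are not independent. Peaks of 800 bp or more numbered 20 on the left (9.17%, 95% CI 6.02 to 13.7) and 15 on the right (9.20%, CI 5.66 to 14.6), against 7.54% of all combined peaks. The difference of -0.0281 percentage points between the arms had an adjusted p of 1 (two-sided Fisher's exact test). The arms together had 9.19% and the centre 7.69% (Fisher's exact test, adjusted p = 0.904).

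**Figure D3:**
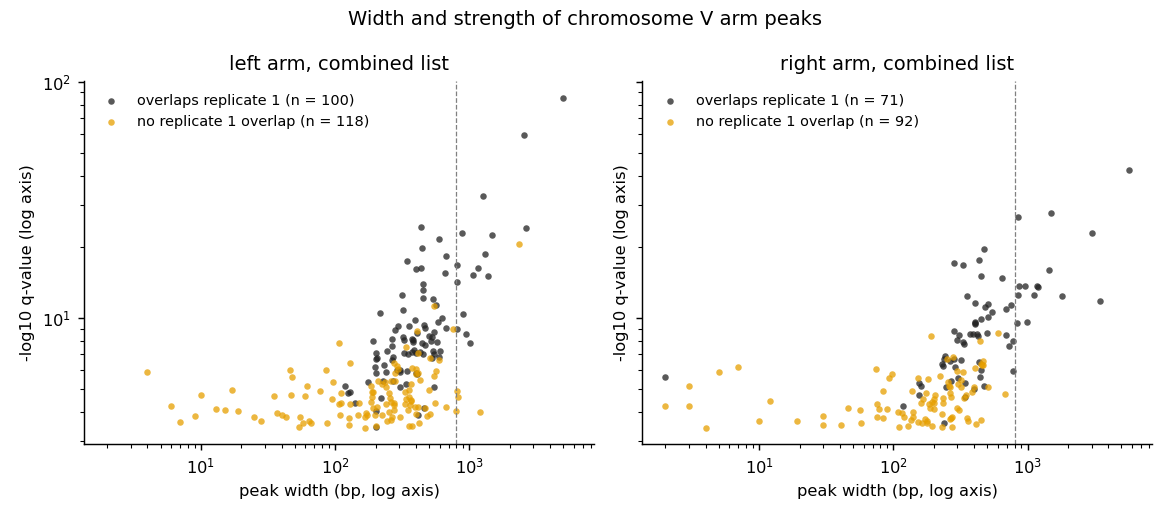
Width in bp and -log10 q-value, both on log axes, of each combined peak on the left arm and on the right arm. Black points overlap a replicate 1 peak and orange points do not, and the dashed line marks 800 bp. Peaks without replicate 1 lie mostly at low -log10 q. An exception is the left-arm peak of 2360 bp with a q-value of 2.64e-21.

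Most broad peaks of the right arm lay in its outer part, 12 of the 15, against 84 of all 163 right-arm combined peaks. Among the 12 were the 3 wide neighbours described above and 6 between 20 and 21 Mb. In that stretch replicate 2 had 4 broad peaks and replicate 1 had 0. On the left arm 8 of the 20 were in the outer part, against 85 of all 218 left-arm combined peaks. Every broad right-arm peak overlapped replicate 1, but its peaks covered a median of 46.8% of their width, and 10 of the 15 were covered to less than 50%. Several of these lay between 20 and 21 Mb, where all 27 combined peaks with a single replicate 2 partner were wider than it. There the covered share depends on the edges of the combined list. Others, such as V:16366952-16367902 with 8.83% covered, had the same edges in replicate 2. On the left arm 16 of 20 overlapped replicate 1, with a median of 84.8% covered in these 16 and 66.9% over all 20, and 8 of the 20 were covered to less than 50%. The other 4 had no replicate 1 peak. In all, 5 left-arm and 2 right-arm peaks overlapped 2 or more separate replicate 1 peaks, 6 of these 7 being broad, against 0.99% of all combined peaks. The 4 without replicate 1 were the 2360 bp peak described above and the peaks at V:1474114-1475318 (1205 bp, q = 0.000106), V:2126561-2127371 (811 bp, q = 1.34e-05) and V:6516705-6517534 (830 bp, q = 2.38e-05). In the inner right arm, the peak at V:16593816-16595625 was 1810 bp wide with 15.5% covered. Broad peaks were mostly strong ones. The 77 arm peaks of smallest q held 30 of the 35 broad arm peaks, and 73 of these 77 overlapped replicate 1. The overlap of broad peaks in the centre or the whole list is not given here. The numbers are small, and the difference in coverage was not tested.

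The shares of combined peaks that overlapped replicate 1 lay within counting error of each other on the left and right arms. Of the left-arm peaks 100 of 218 overlapped a replicate 1 peak by at least 1 bp (45.9%, 95% CI 39.4 to 52.5), and of the right-arm peaks 71 of 163 (43.6%, CI 36.2 to 51.2), against 40.4% of all combined peaks. The difference was 2.31 percentage points (two-sided Fisher's exact test, adjusted p = 0.904). For the arms together the share was 44.9%, and for the centre 43.0% (Fisher's exact test, adjusted p = 0.904). These tests do not show that the shares are equal. The replicate 1 list is shorter, with 108 left-arm and 78 right-arm peaks, which limits how high these shares can be. With the combined list cut to its 1562 peaks of smallest q, the length of the replicate 1 list, the shares were higher. They were 82.3% on the left arm, 82.4% on the right arm and 80.3% in the centre. With the combined peaks of chromosome V placed in 3 equal classes of q-value, the share followed strength in every region. In the strongest class, with q-values up to 9.94e-08, 90.8% of left-arm (69 of 76), 93.9% of right-arm (46 of 49) and 85.6% of centre peaks overlapped replicate 1. In the middle class the shares were 36.6%, 38.3% and 36.3%. In the weakest, with q-values from 2.73e-05, they were 7.04%, 3.70% and 7.14%. Peaks under 50 bp wide, which made up 8.40% of arm peaks against 7.81% of all combined peaks, had 1 member of 32 that overlapped replicate 1.

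**Figure D4:**
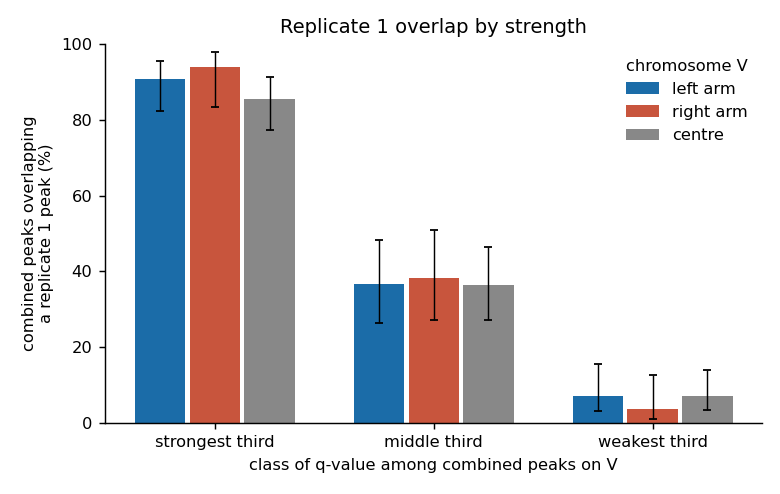
Share of combined peaks that overlap a replicate 1 peak by at least 1 bp, in percent, for the left arm, right arm and centre of chromosome V in 3 equal classes of q-value. Bars are shares and lines 95% Wilson intervals, which cover counting error only. The 3 regions lie close together in each class, at 85.6 to 93.9% in the strongest and 3.70 to 7.14% in the weakest.

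Peaks paired between the replicates mostly had a smaller q-value and a larger width in replicate 2 on each arm. One-to-one pairs, in which a single peak of each list overlapped, numbered 95 on the left arm and 68 on the right. Replicate 1 had the larger q-value in 91 of 95 left-arm and 66 of 68 right-arm pairs. Its median log10 q-value was -5.18 on the left and -5.01 on the right, and that of replicate 2 was -7.80 and -8.55. The replicate 1 minus replicate 2 difference had a median of 2.68 on the left (quartiles 1.57 and 4.17) and 3.27 on the right (quartiles 1.74 and 5.01). The quartiles of the arms overlap, and no test was made. Replicate 1 peaks had median widths of 313 and 328 bp, and their replicate 2 partners 403 and 419.5 bp. The replicate order of q-values was kept in part, with a Spearman's rho of 0.82 across the 95 left-arm and 0.67 across the 68 right-arm pairs. Peak centres were a median of 21.5 bp apart on the left and 26.25 bp on the right. Pairs were formed on the arms only, so no share in the centre or the whole list stands beside these counts. Read depth is unknown, which limits the comparison of q-values and widths between the replicates.

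The 6 pairs that were stronger in replicate 1 were mostly weak sites. The exception was at V:264906-265847 on the left arm, near the chromosome end. It had a width of 942 bp and a q-value of 5.26e-13 (rank 146) in replicate 1, and a width of 946 bp and a q-value of 3.14e-09 (rank 843) in replicate 2, with coinciding centres. On the right arm the largest such case was at V:15187612-15188077, with q-values of 1.44e-06 in replicate 1 and 1.05e-05 in replicate 2. In the other direction, the largest left-arm difference among pairs was at V:5834921-5837149 of replicate 1. Its q-values were 8.88e-34 in replicate 1 (rank 16) and 4.96e-60 in replicate 2 (rank 19). On the right arm the largest was at V:18639494-18640220 of replicate 1. There the q-values were 1.71e-15 (rank 104) in replicate 1 and 2.50e-27 (rank 93) in replicate 2. The strongest combined peak of each arm was split in replicate 1, so neither is among the pairs. Their smallest replicate 1 q-values were 1.07e-32 on the left and 6.66e-09 on the right, against 2.32e-86 and 3.78e-43 in replicate 2.

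**Figure D5:**
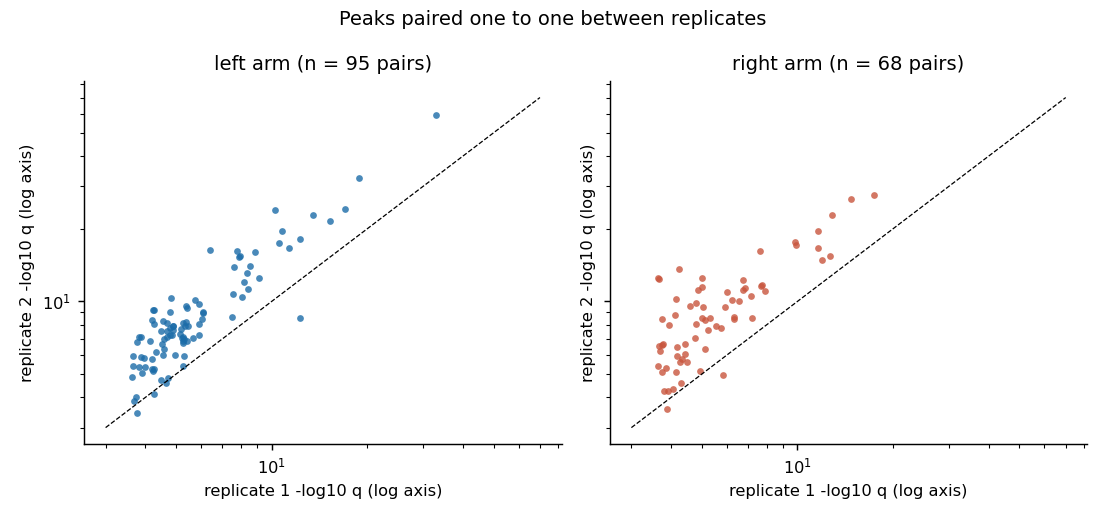
The -log10 q-value in replicate 1 (horizontal) and replicate 2 (vertical), on log axes, for peaks paired one to one on the left arm (95 pairs) and the right arm (68 pairs). The dashed line marks equal values. Above it lie 91 left-arm and 66 right-arm pairs. The left-arm point well below it is the site at V:264906-265847.

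Few arm peaks of replicate 1 were missing from the other lists. On the left arm 105 of 108 replicate 1 peaks overlapped a combined peak, and on the right arm 74 of 78, against 96.5% of all replicate 1 peaks. The 3 left-arm exceptions were at V:450662-450723, V:4509092-4509114 and V:5284166-5285291. The last was 1126 bp wide with a q-value of 8.85e-05, and lay 8499 bp from the nearest combined peak. Of the 4 right-arm exceptions, the strongest was at V:20644222-20644562, with a q-value of 7.04e-06 and a distance of 44637 bp to the nearest combined peak. Another, at V:14117266, was listed with a width of 1 bp and lay 9 bp from a combined peak. None of the 7 overlapped a replicate 2 peak.

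The combined list was nearly the replicate 2 list on the arms. All 218 left-arm and 160 of 163 right-arm combined peaks overlapped a replicate 2 peak, against 98.6% of all combined peaks. A replicate 2 peak with the same start, end and q-value existed for 140 left-arm (64.2%) and 110 right-arm (67.5%) peaks, against 72.1% of all combined peaks and 87.8% of those in the centre. Identity came in whole 1 Mb stretches. In 4 of 7 left-arm and 5 of 7 right-arm stretches every combined peak was identical, and in the other 5 only 1 of 132 was. In the stretches from 1, 3, 4 and 19 Mb, 99 of 100 combined peaks with a single replicate 2 partner were narrower than it, by medians of 9, 5.5, 11 and 22 bp. In the stretch from 20 Mb all 27 were wider, by a median of 10 bp. That stretch had 6 combined, 0 replicate 1 and 4 replicate 2 peaks of 800 bp or more. The 15 left-arm replicate 2 peaks without a combined counterpart all lay in the first 3 of these stretches. The results of the combined and replicate 2 lists are therefore not separate measurements of the arms.

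Close neighbours were counted more often on the left arm than on the right, but not beyond the test's threshold. On the left 59 of 218 combined peaks (27.1%, 95% CI 21.6 to 33.3) had another peak less than 1000 bp away, and on the right 31 of 163 (19.0%, CI 13.7 to 25.7), against 24.1% of all combined peaks. Fisher's exact test gave p = 0.0691 and an adjusted p of 0.184 (two-sided). A close neighbour is a trait that both peaks of a pair share, and the 59 and 31 peaks came from 35 and 17 gaps under 1000 bp. The tests and intervals for this share count such linked peaks as independent, so they only describe the counts. In replicate 1 the shares were 25.9% and 23.1%. For the arms together the share was 23.6%, and 23.4% in the centre (Fisher's exact test, adjusted p = 1). Peaks under 1000 bp apart formed runs of 3 or more at 8 places on the left arm, 2 on the right and 7 in the centre. These runs held 27, 7 and 25 combined peaks. The longest run, of 6 peaks, was the one between V:723767 and 731723, and the longest on the right, of 4, lay between V:19519566 and 19523065. The median distance between neighbouring peaks was 12.0 kb on the left and 19.0 kb on the right, compared with 8.97 kb in the centre. In windows of 50 kb, 52 of 140 on the left and 55 of 138 on the right held no combined peak, compared with 38 of 140 in the centre.

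At the left limit, the last peak inside the arm was at V:6998208-6998606 (q = 0.000121) and the first outside at V:7060275-7060680 (q = 9.54e-08). At the right limit, the first peak inside was at V:14008313-14008765 (q = 4.29e-07) and the last outside at V:13986807-13987135 (q = 3.49e-06). None of these 4 overlapped replicate 1.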

How the data were processed

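The authors' deposited files are 3 peak lists, for ChIP replicate 1, ChIP replicate 2 and a combined list, which give a chromosome, start, end and q-value per peak. Peaks were called with PeakSeq in WormBase build WS180, per the file headers and the caller named in each line. Not given in the sources used here are the aligner, the caller's version and threshold, how the inputs were used and how the combined list was made. Depth is unknown because read counts are missing, so list length may vary with depth or threshold. Whether the replicates are separate cultures is not stated. Samples were grouped by their titles.

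Members and tests were chosen with earlier results of these data known. Arm lengths run from the first or last peak of any list on V (44177 and 20899372) to the limits. Ranks are by q-value over a whole list. Overlap means at least 1 bp. Densities were tested with exact binomial tests and shares with Fisher's exact test, two-sided, adjusted by the Benjamini-Hochberg method over 8 tests in the combined list and 6 in each replicate list, at a threshold of 0.05. The 95% Wilson intervals given with shares cover only counting error. Both kinds of test count peaks, which are not replicates. In each arm the named peaks are the 10 of smallest q, the 5 widest, the 3 strongest without replicate 1, the unmatched replicate 1 peaks, those at the limits, the densest window and the pairs of largest q ratio. Functions were tested on simulated lists. The tests used scipy 1.17.1 in Python 3.11.15, tables pandas 2.3.3 with numpy 2.4.6, and plots matplotlib 3.10.9.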

Additional observations from a re-analysis of the deposited data

How the results depend on the processing

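The density ratio of arms to centre lay between 0.606 and 0.712 in the 7 alternatives run (adjusted p between 9.38e-10 and 0.0213 in exact binomial tests, which count clustered peaks as independent). The left to right density ratio stayed above 1 in all 7 but missed the test's threshold in 5 (adjusted p between 0.100 and 0.578). It was 1.26 with limits at 6 and 15 Mb, 1.15 with limits at 8 and 13 Mb, 1.33 in the 50% of combined peaks of smallest q, 1.24 with peaks under 1000 bp apart merged, and 1.37 to 1.38 with a single replicate list. The cause was not tested. No share passed its threshold under any alternative, and several small differences changed sign, for which the cause was not tested. For replicate 1 overlap, left minus right was -1.17 percentage points with limits at 8 and 13 Mb and -0.0613 with lists of equal length. Arms minus centre was -0.155 in the 50% list and -0.868 with merged peaks. For broad peaks, left minus right was 2.97 with merged peaks and 0.997 to 1.23 with a single replicate list, and arms minus centre was -3.02 with merged peaks and -1.34 to 0.458 with a single replicate list. For close neighbours, arms minus centre was -1.62 and -2.16 with the other limits, -1.06 without peaks under 50 bp, -1.73 in the 50% list and -5.91 with gaps under 2000 bp. The left minus right median width was 22.5 bp with limits at 8 and 13 Mb, -12 bp in the 50% list and -10.5 to 15 bp with a single replicate list. The same difference of median log10 q was 0.0110 with limits at 8 and 13 Mb, -0.281 without peaks under 50 bp, 0.496 in the 50% list and -0.143 to -0.102 with a single replicate list. No paired analysis was possible because peak lists exist for the ChIP samples alone. Unknown depth limits any comparison of the replicate lists.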
